A study of Sus scrofa with 8 samples.

Results

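Beta-2-microglobulin (B2M) and the genes that load peptides onto MHC class I were measured in the livers of 8 pigs. The genes were B2M, the porcine class I heavy chains SLA-1, SLA-2 and SLA-3, the peptide transporter subunits TAP1 and TAP2, tapasin (TAPBP), and the inducible proteasome subunits PSMB8 and PSMB9. Every probe set whose only symbol in the array annotation was 1 of these 9 genes was taken, which gave 16 of the 24123 probe sets on the array and covered 6 of the 9 genes. B2M had 9 probe sets, TAP1 had 3, and SLA-2, SLA-3, TAPBP and PSMB8 had 1 each. SLA-1, TAP2 and PSMB9 had none with a single symbol and were not analysed here. The genes were selected on the measured breed differences of these same arrays, in which B2M probe sets went opposite ways. The differences of the 16 probe sets between breeds are therefore given as a description, with no test.

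Liver RNA was put on an Affymetrix porcine array, 1 array per animal. The groups were 4 Korean native pigs (KNP) aged 7 months and 4 Yorkshire pigs (YS) aged 6 months, untreated as far as the labels say and raised alike. Age followed breed, so the 2 cannot be told apart. The labels call the animals biological replicates, and having only 4 arrays in a group limits precision. Values are intensities on the authors' linear scale, which carries no detection call. Differences are KNP minus YS on the scale log2(intensity + 16), with the standard error (SE) of the limma fit over all probe sets. That fit covered the 14399 probe sets left after controls and the lower 40% by mean had been removed. A probe set is called when its Benjamini-Hochberg adjusted p is under 0.05.

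Class I molecules carry peptides from inside the cell to its surface, where T cells and natural killer cells read them. Proteasomes cut proteins into peptides, and under interferon the subunits PSMB8, PSMB9 and PSMB10 replace the constitutive catalytic subunits. TAP1 and TAP2 together pump the peptides into the endoplasmic reticulum. There tapasin, calreticulin and PDIA3 hold a heavy chain paired with B2M until a fitting peptide binds. B2M also pairs with relatives of class I such as the neonatal Fc receptor, and most nucleated cells make it, hepatocytes included.

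Bright probe sets as a class were lower in KNP on the deposited scale, which touches the bright members and is given first. The highest intensity on an array ran from 50730 to 60066 in KNP and from 83646 to 95919 in YS. Among probe sets whose log2 intensity averaged 13 to 14 the median difference was −0.22, from 14 to 15 it was −0.39, and from 15 to 17 it was −0.58. After quantile normalization, which gives every array the same distribution, these medians were −0.060, −0.041 and −0.028. That step removes such a difference whatever its source, and the source was not tested. The spiked hybridization controls, as a geometric mean per array, ran from 2747 to 4230 in KNP and from 5167 to 7651 in YS. The 3′ signal of the actin control divided by its 5′ signal ran from 2.68 to 6.45 in KNP and from 8.39 to 11.8 in YS. Neither measure overlapped between the breeds, and their part in the differences below was not tested. In the fit over all probe sets 61 were called higher and 88 lower in KNP, against 10 and 4 after quantile normalization, 10 and 4 after cyclic loess normalization, and 57 and 38 after median centring.

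The probe set Ssc.12809.5.A1_at gave the B2M signal that was high in KNP. Its intensity was 36152, 34638, 30035 and 37148 in the 4 KNP livers and 12417, 14108, 14495 and 8855 in the 4 YS livers. All KNP values lay above all YS values. The means were 34493 ± 3146 and 12469 ± 2573 (SD, n = 4 per breed), a 2.81-fold difference (log2 1.49, SE 0.16). The difference ran against that of other bright probe sets, since the 171 tested probe sets within 0.5 log2 units of its mean intensity had a median of −0.36. It was 1.88 after quantile normalization, and between 1.33 and 1.57 with each animal left out in turn.

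The other bright B2M probe sets were lower in KNP on the deposited scale. Ssc.12348.1.S1_at read 29893, 31262, 28331 and 32858 in KNP and 37627, 36918, 54959 and 44665 in YS. The breeds did not overlap there, and YS replicate 3 was the highest liver. The difference was −0.49 (SE 0.14), beside a median of −0.53 for probe sets of like intensity, and it shrank to −0.0047 after quantile normalization. A second probe set of the same numbered cluster, Ssc.12348.2.S1_at, read 12300, 15608, 9378 and 14311 in KNP and 15009, 15368, 19386 and 16060 in YS. Here the breeds overlapped, with KNP replicate 2 above both YS replicates 1 and 2. The difference was −0.37 (SE 0.17), against a median of −0.30 at like intensity, and −0.16 after quantile normalization.

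Ssc.5896.1.S1_at was the tightest B2M probe set, at 16003, 15875, 15650 and 16975 in KNP and 24663, 20221, 22895 and 21330 in YS. No KNP liver reached the lowest YS liver. The difference was −0.46 (SE 0.11), beside −0.35 for probe sets of like intensity, and −0.14 after quantile normalization. Ssc.8925.1.S1_at read 29627, 25294, 32128 and 35972 in KNP and 47843, 52165, 33690 and 49218 in YS. Its breeds overlapped through YS replicate 3, which lay below KNP replicate 4. The difference of −0.56 (SE 0.16) stood beside a median of −0.54 at like intensity, and was −0.057 after quantile normalization. YS replicate 3 was thus the lowest YS liver at Ssc.8925.1.S1_at and the highest at Ssc.12348.1.S1_at, which carry the same gene symbol.

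**Figure D1:**
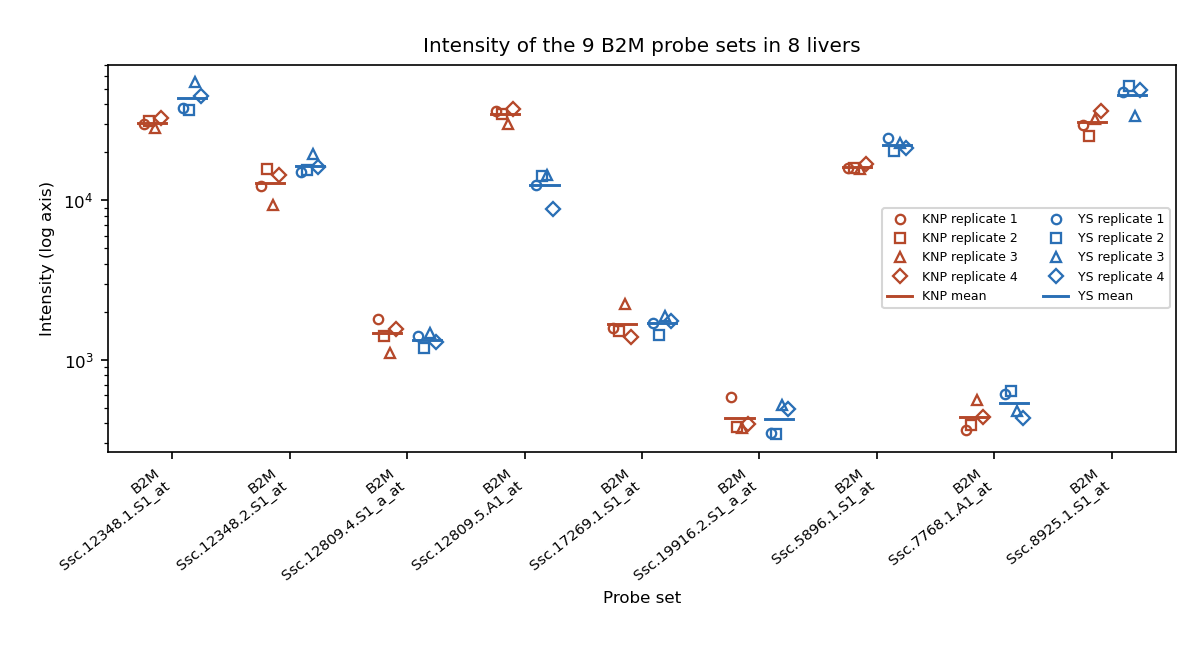
Intensity (log axis) of each of the 9 B2M probe sets in 4 KNP and 4 YS livers. Each symbol is 1 animal and each line the mean of a breed. At Ssc.12809.5.A1_at the KNP livers sit between 30035 and 37148 and the YS livers between 8855 and 14495, while at Ssc.5896.1.S1_at all KNP livers sit below all YS livers.

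The dimmer B2M probe sets overlapped between the breeds, with differences from −0.30 to 0.12. Ssc.12809.4.S1_a_at shares its cluster number with the probe set that was high in KNP. It read 1802, 1412, 1108 and 1572 in KNP and 1405, 1188, 1471 and 1302 in YS, a difference of 0.12 (SE 0.17). The YS livers lay inside the KNP range. Ssc.17269.1.S1_at ran from 1394 to 2246 in KNP and from 1431 to 1897 in YS, with a difference of −0.021 (SE 0.18) that turned to a positive sign after median centring or without KNP replicate 2, KNP replicate 4 or YS replicate 3. Ssc.19916.2.S1_a_at ran from 373 to 586 and from 344 to 522, with a difference of 0.024 (SE 0.21). That sign turned after quantile and cyclic loess normalization and without KNP replicate 1, YS replicate 1 or YS replicate 2. Ssc.7768.1.A1_at ran from 365 to 559 in KNP and from 434 to 637 in YS, with a difference of −0.30 (SE 0.19) and of −0.32 after quantile normalization. Probe sets of like intensity had a median of 0.018 there.

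Of the 9 B2M probe sets, 6 had a lower and 3 a higher mean in KNP (51.1% and 48.9% of all probe sets tested). Their median difference was −0.30, against −0.0086 over all 14399 probe sets tested. At the bright B2M probe sets, however, the median at like intensity was itself between −0.54 and −0.30. After quantile normalization 7 of the 9 had a lower mean and 2 a higher one. The 7 differences were −0.0047, −0.015, −0.057, −0.072, −0.14, −0.16 and −0.32, with SE from 0.10 to 0.21. The 2 were 0.075 and 1.88. The array annotation assigns all 9 to a single B2M entry and a single transcript accession, although their identifiers carry 7 different cluster numbers. The pig gene table used here (Sscrofa11.1) lists 2 genes under the symbol B2M with 1 other entry between them, and the annotation refers to only 1 of the pair. The probe sequences were not used here, so which transcript each probe set reads was not examined.

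The class I heavy chains overlapped between the breeds. SLA-2, one of the classical heavy chains that present peptide to T cells, had the probe set Ssc.13780.5.S1_x_at, whose suffix marks probes that can match related sequences. It read 17846, 12237, 12390 and 20349 in KNP and 9301, 16569, 15322 and 13263 in YS. KNP replicates 1 and 4 were the highest livers and YS replicate 1 the lowest, with the rest between. The difference was 0.20 (SE 0.22), beside a median of −0.30 at like intensity, and 0.45 after quantile normalization. SLA-3, another classical heavy chain, had Ssc.13780.9.S1_a_at at 4022, 2665, 1478 and 5270 in KNP and 4052, 4688, 5254 and 3146 in YS. KNP held both the highest and the lowest liver. The difference was −0.47 (SE 0.34), and without KNP replicate 3 it shrank to −0.13. The classical genes are close copies of one another and vary between pigs, so the heavy chain that each probe set reads, and the allele, cannot be told apart from these values.

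Another 5 probe sets were annotated to several class I genes at once and lay outside the selection. The bright ones resembled SLA-2 in range. Ssc.13780.4.S1_x_at ran from 10503 to 17411 in KNP and from 7789 to 14036 in YS (difference 0.27, SE 0.21), and Ssc.13780.10.S1_x_at from 8238 to 14112 and from 6853 to 10058 (difference 0.30, SE 0.20). Ssc.13780.11.S1_x_at varied far more between animals, at 1540, 900, 834 and 63.8 in KNP and 5.94, 662, 74.0 and 108 in YS. Strong signals thus stood beside weak ones within each breed, and the difference of 2.30 had an SE of 1.04. Ssc.13780.10.A1_at went the other way, at 115 ± 53.2 in KNP and 197 ± 25.4 in YS (SD, n = 4 per breed). Its difference was −0.79 (SE 0.32), and −0.71 after quantile normalization. Ssc.13780.11.A1_at was below the array median in all 8 livers.

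The loading and peptide supply genes showed the following values. TAPBP encodes tapasin, which bridges the transporter and the heavy chain. Its probe set Ssc.3828.1.S1_at read 1315, 1240, 1045 and 1368 in KNP and 929, 1053, 1015 and 1190 in YS. Only KNP replicate 3 fell into the YS range, and the difference was 0.24 (SE 0.15). TAP1, which forms the transporter with TAP2, read 577, 532, 492 and 714 in KNP and 449, 504, 673 and 656 in YS with Ssc.27863.1.S1_at. These ranges nearly coincided, and the difference of 0.027 (SE 0.19) turned negative after quantile and cyclic loess normalization and without KNP replicate 4, YS replicate 1 or YS replicate 2. The other TAP1 probe sets were among the lower 40% and were below the array median in all 8 livers. Ssc.23546.1.S1_at ran from 11.0 to 28.5 in KNP and from 11.8 to 18.1 in YS, and Ssc.23546.2.A1_at from 6.00 to 65.9 and from 5.06 to 102.

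PSMB8 encodes an inducible catalytic subunit of the proteasome. Its probe set Ssc.11073.1.S1_at read 896, 699, 712 and 914 in KNP and 414, 480, 917 and 786 in YS. The YS livers divided into a lower pair, replicates 1 and 2, and a higher pair inside or just above the KNP range. The means were 805 ± 115 and 649 ± 241 (SD, n = 4 per breed), a difference of 0.37 (SE 0.25), and of 0.55 without YS replicate 3.

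**Figure D2:**
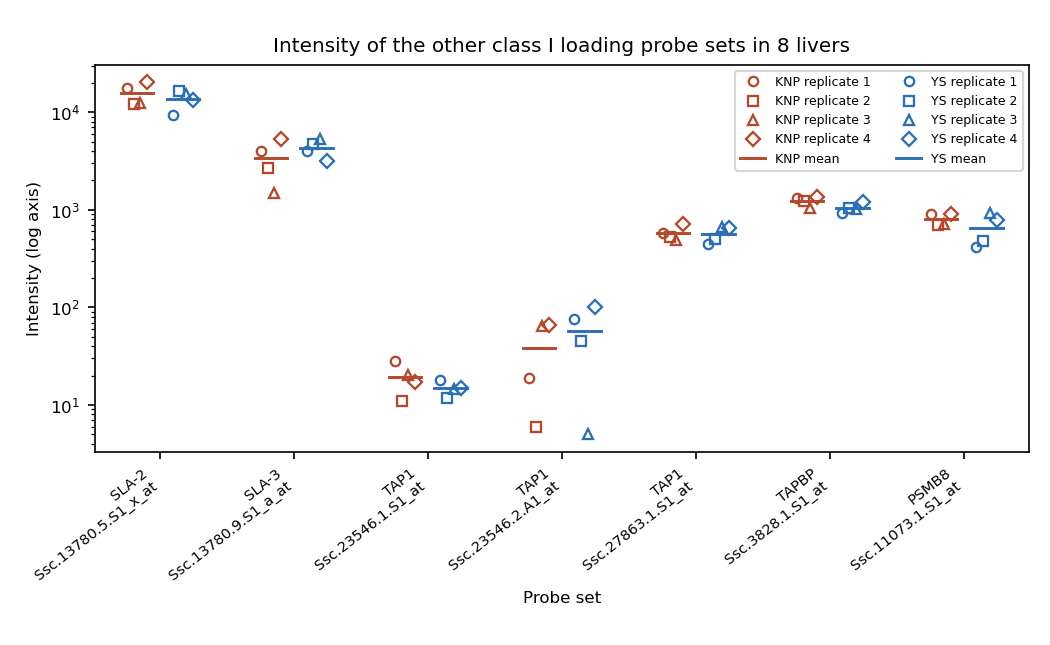
Intensity (log axis) of the 7 probe sets of SLA-2, SLA-3, TAP1, TAPBP and PSMB8 in 4 KNP and 4 YS livers. Each symbol is 1 animal and each line the mean of a breed. The breeds overlap at all 7, and 2 of the 3 TAP1 probe sets lie near background.

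Taking all members, 14 of the 16 probe sets passed the filter on low values. Of these 14, 1 was called higher in KNP, the B2M probe set Ssc.12809.5.A1_at, and 0 were called lower. Over all probe sets tested 0.424% were called higher and 0.611% lower, and 1.03% in either direction. After quantile normalization the same 1 of 14 was called higher and 0 lower, against 0.0694% and 0.0278% of all probe sets, and 0.0972% in either direction. All 4 KNP values lay above all 4 YS values in 1 of the 14 (4.01% of all probe sets) and below them in 2 (5.67%), both of B2M, so that 3 of 14 did not overlap (9.68% in either direction). The median difference over the 14 was 0.0015, with 7 above and 7 below 0 (48.9% and 51.1% of all probe sets). Because the set was chosen with this comparison known, these counts describe the members and test nothing.

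**Figure D3:**
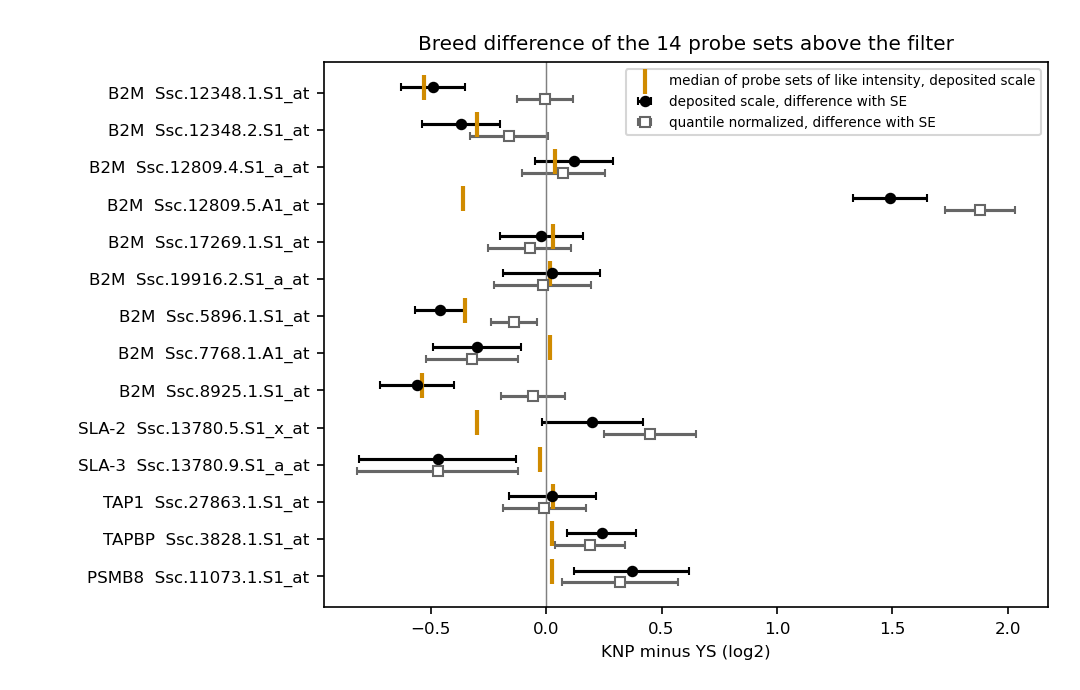
KNP minus YS (log2) of the 14 tested probe sets on the deposited scale (filled circles) and after quantile normalization (open squares), with SE bars. Orange ticks are the median difference of all tested probe sets within 0.5 log2 units of the same mean intensity. Ssc.12809.5.A1_at lies at 1.49, far to the right of its tick at −0.36.

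**Figure D4:**
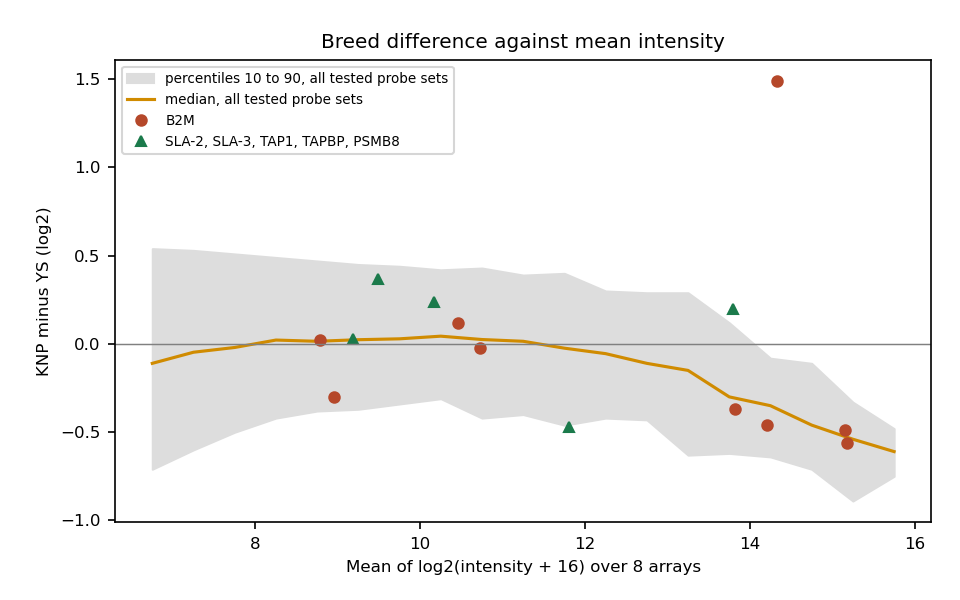
KNP minus YS (log2) against mean log2(intensity + 16) over the 8 arrays. The line is the median and the band the percentiles 10 to 90 of all 14399 tested probe sets in steps of 0.5 log2 units, and points are the 14 tested members. Of the 5 brightest B2M probe sets, 4 lie along the falling median and 1 lies at 1.49.

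Variation among animals of one breed does not use the breed difference. For each probe set the breed mean was subtracted, and Pearson's r was taken over the 8 livers as a description, with no p. Among SLA-2, SLA-3, TAP1, TAPBP and PSMB8 all 10 pairs had r above 0, from 0.29 to 0.91 with a median of 0.61 (Spearman's rho 0.24 to 0.86, median 0.58). Over all pairs of the 7189 tested probe sets with 1 symbol, the median r was 0.0040, 50.3% were above 0, and the percentiles 10 and 90 were −0.56 and 0.57. After quantile normalization the 10 pairs ran from 0.32 to 0.91. Within KNP alone 10 of the 10 were above 0, and within YS alone 8. TAP1 and PSMB8, neighbours in the gene table, had the highest r of these, 0.91. KNP replicate 4 was the highest KNP liver at all 5 probe sets, and YS replicate 1 the lowest YS liver at 4 of them. These points share their 8 arrays, so any feature of a liver or an array enters every pair.

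The B2M probe sets did not vary together in this way. Among their 36 pairs 19 had r above 0, with a median of 0.076 and a range from −0.79 to 0.67 (Spearman's rho −0.83 to 0.76). The highest r joined Ssc.12348.1.S1_at and Ssc.12348.2.S1_at (0.67), and the lowest joined Ssc.19916.2.S1_a_at and Ssc.7768.1.A1_at (−0.79). Ssc.12809.5.A1_at and Ssc.12809.4.S1_a_at, which share a cluster number, had r of 0.37. The highest r with PSMB8 were those of Ssc.12348.1.S1_at (r 0.88, and 0.82 with TAP1) and Ssc.19916.2.S1_a_at (0.81). Ssc.12809.5.A1_at had r of −0.071 with PSMB8 and −0.0031 with TAP1, but 0.68 with SLA-3. Within KNP alone, over 4 livers, its r with PSMB8, TAP1 and SLA-3 was 0.75, 0.82 and 0.98. Within YS alone it was −0.20, −0.28 and 0.97, so the values near 0 joined breeds that went opposite ways. Ssc.7768.1.A1_at had r below 0 with all 5 other genes, from −0.74 to −0.27. Over the 45 pairs of a B2M probe set with another member the median was 0.27, with 27 above 0. Within KNP alone 35 of the 45 were above 0, and within YS alone 24.

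**Figure D5:**
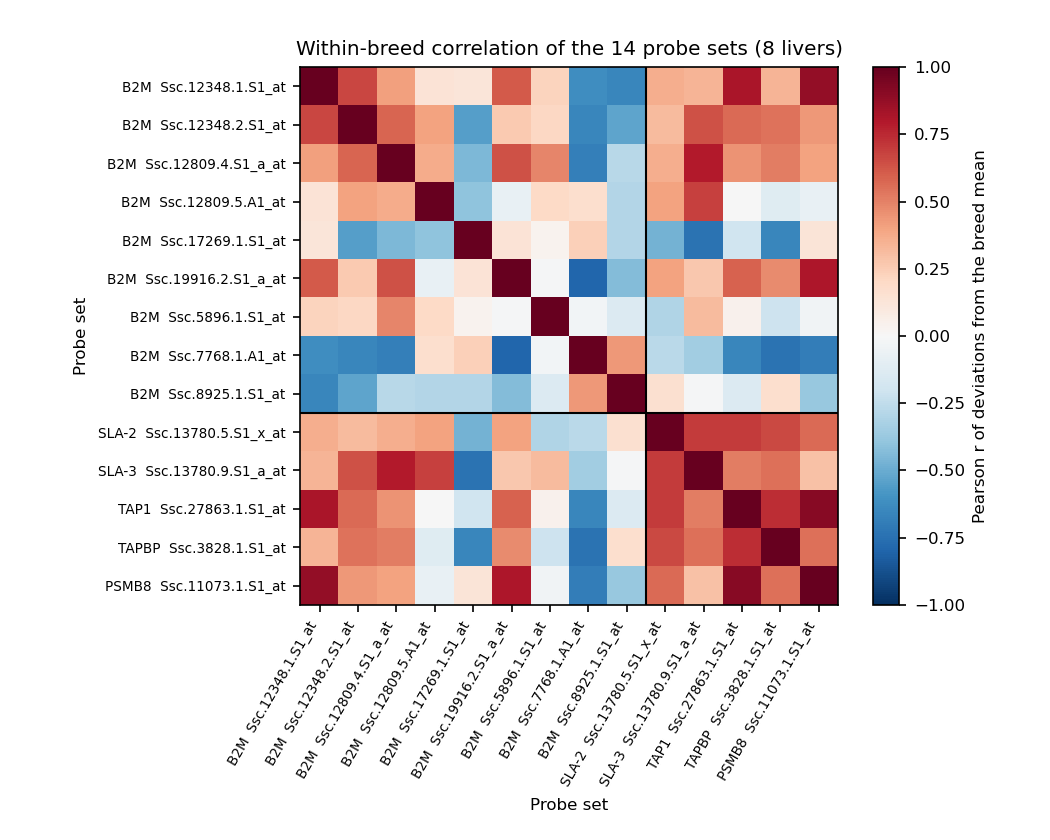
Pearson's r between the 14 tested probe sets, from deviations of log2(intensity + 16) from the breed mean over 8 livers. Lines divide the 9 B2M probe sets from the 5 of SLA-2, SLA-3, TAP1, TAPBP and PSMB8, whose 10 pairs are all above 0, while the B2M pairs run from −0.79 to 0.67.

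The genes most like each B2M probe set by this measure were as follows, each being the top 3 of 7189 probe sets over 8 livers. Ssc.12348.1.S1_at was nearest to MBD1 (r 0.98), CENPB (0.98) and TMEM100 (0.96). Ssc.12348.2.S1_at was nearest to LARP4B (0.97), DDX27 (0.97) and GADD45B (0.96). Ssc.12809.5.A1_at was nearest to PPP1CA (0.98), TAF1B (0.97) and RBM5 (0.96), and Ssc.12809.4.S1_a_at to APCDD1 (0.99), TRPM7 (0.98) and NPC2 (0.97). None of these is a gene of the class I pathway lists. Ssc.5896.1.S1_at was nearest to GABARAPL1, RPS28 and PHKA2 (each 0.94), and Ssc.8925.1.S1_at to CA9 (0.98), HNRNPUL1 (0.98) and THYN1 (0.97). The top genes were ATG12 (0.99), LYVE1 (0.97) and CKS1B (0.96) for Ssc.17269.1.S1_at. They were BDH2 (0.98), C6H1orf50 (0.96) and CASTOR1 (0.94) for Ssc.19916.2.S1_a_at, and SUCLA2 (0.96), KAT8 (0.93) and PEX7 (0.93) for Ssc.7768.1.A1_at. The 27 genes were all different, and 0 of them was a member or in the pathway lists. Each r is the highest found in a search of 7189 probe sets over only 8 livers, so high values arise from the search itself. Whether any of these genes varies with B2M beyond that was not tested.

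The other genes of the pathway were taken from lists of cofactors, regulators and relatives, and were tested in the same limma fit. Of 21 cofactors and regulators 14 had a probe set and 12 passed the filter, with 21 probe sets. None of the 21 passed with limma's adjusted p (0 higher, 0 lower, 3 with an unadjusted p under 0.05), and their median difference was 0.0080, or −0.0082 after quantile normalization. All KNP livers lay above all YS livers in 2 of the 21 (4.01% of all probe sets tested) and below them in 1 (5.67%). The 1 below was RFXANK, with a difference of −0.17 (SE 0.14, limma adjusted p = 0.617). PDIA3, the disulfide isomerase of the loading complex, came closest to passing. Its probe set Ssc.1165.1.S1_at read 9705, 9057, 14856 and 7867 in KNP and 4964, 6300, 4878 and 5590 in YS, with no overlap (log2 0.90, SE 0.19, limma adjusted p = 0.0590). Without KNP replicate 4 it passed at 1.01 (limma adjusted p = 0.0486, within 0.0368 to 0.158 over 18 alternatives), but it passed in only 1 of the 8 fits with an animal left out and in 2 of the 18 alternatives in all. Ssc.10997.1.S1_at read 2414, 2330, 2133 and 536 in KNP and 401, 441, 474 and 306 in YS. KNP replicate 4 lay close to the YS livers and apart from the other KNP livers there. The difference was 1.95 (SE 0.41, limma adjusted p = 0.0558), and without KNP replicate 4 it was 2.47 and passed (limma adjusted p = 0.00200, within a range of 0.00200 to 0.160 over 18 alternatives). It too passed in 1 of the 8 fits with an animal left out, and in 3 of the 18 alternatives. The third PDIA3 probe set, Ssc.1165.2.A1_at, showed 0.44 (limma adjusted p = 0.373).

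JAK2, a kinase of the interferon receptors, showed 0.71 with Ssc.324.1.S1_a_at (limma adjusted p = 0.167) and −0.31 with Ssc.324.3.S1_a_at. The chaperones CALR and CANX, the proteasome activators PSME1 and PSME2 and the interferon factor IRF1 did not pass, with differences of −0.15 for CALR, −0.16 for PSME1, −0.047 for PSME2 and 0.032 for IRF1. The 6 CANX probe sets lay between −0.50 and 0.45. PSMB10, the inducible subunit that works beside PSMB8, showed 0.28 (SE 0.23, limma adjusted p = 0.616).

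Of 10 nonclassical class I genes and B2M partners, 3 of the 4 with a probe set passed the filter, with 4 probe sets. None passed with limma's adjusted p (0 higher, 0 lower, 2 with an unadjusted p under 0.05), and the median difference was −0.15. SLA-6, a nonclassical heavy chain, had Ssc.13780.3.S1_at, which read 419, 434, 418 and 667 in KNP and 184, 226, 363 and 375 in YS, without overlap (log2 0.75, SE 0.26, limma adjusted p = 0.197). Its other probe set, Ssc.16308.1.S1_at, went the opposite way but lay in the lower 40% and was not tested, at 9.32, 8.44, 15.4 and 5.29 in KNP and 92.6, 12.8, 43.0 and 121 in YS (−1.48, SE 0.47). SLA-8, another nonclassical heavy chain, showed −0.67 (limma adjusted p = 0.163) and −0.48 (0.348) with its 2 probe sets. FCGRT, the neonatal Fc receptor that pairs with B2M, was at 6762 ± 841 in KNP and 6040 ± 860 in YS (SD, n = 4 per breed), a difference of 0.17 with a limma adjusted p of 0.648.

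Among the 3 constitutive catalytic subunits that the inducible ones replace, PSMB5 rose in KNP. It read 2096, 2743, 2130 and 2125 in KNP and 1087, 1556, 1297 and 1087 in YS, and every KNP liver was above every YS liver. The difference was 0.85 (SE 0.17, limma adjusted p = 0.0440, higher in 4 of 4 KNP livers). The call held in 4 of 18 alternatives, with limma adjusted p from 0.0347 to 0.143, and was lost with each of the 8 animals left out (0.0645 to 0.143). PSMB6 showed 0.32 and PSMB7 0.11, and neither passed. The median of the 3 was 0.32. A difference between PSMB5 and its inducible counterpart PSMB8 was not tested.

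Cells other than hepatocytes also carry class I, so their markers were measured in the same arrays. The 9 probe sets of 8 hepatocyte genes summed to between 311676 and 363655 in KNP and between 503004 and 542411 in YS, with 7 called lower in KNP, 0 higher and a median of −0.60. All tested probe sets with a log2 intensity of 15 to 17 had a median of −0.58, as given above. After quantile normalization the hepatocyte median was −0.028 (range −0.33 to 0.043), and limma called 0 of the 9 in either direction, with 1 at an unadjusted p under 0.05. The most intense signals were those of ALB and TF. Of 18 T and NK cell genes 11 had a probe set and 7 passed the filter. All 7 differences were above 0 (median 0.47), 0 were called by limma and 2 had an unadjusted p under 0.05. The probe sets left out by the filter went both ways. They showed −0.16 for CD3G, −0.59 and 0.19 for CD4, 0.33 for LCK, −0.10 and −0.59 for PRF1, and 0.34 for IL7R. The intensity summed over all 14 probe sets, tested or not, ran from 1323 to 2888 in KNP and from 1184 to 1965 in YS. GNLY and CD8A had the most intense signals. In bulk tissue, a different number of cells of a type and a different amount of RNA per cell cannot be told apart. CD3G, CD4, IL7R and PRF1 were below the array median on every array.

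Of 14 macrophage genes 10 had a probe set and 13 probe sets were tested, with a median of 0.39. The differences ran from −0.46 to 0.93, with 11 above and 2 below 0. VSIG4 showed 0.39, −0.46 and 0.37 with its probe sets. Probe sets left out by the filter showed −0.28 for CD14, and −0.10 and 0.55 for MARCO. FCER1G rose by 0.93 (SE 0.17, limma adjusted p = 0.0384), a call that held in 6 of 18 alternatives (limma adjusted p 0.0255 to 0.116) and with 1 of the 8 animals left out, KNP replicate 2. The other 12 tested probe sets did not pass. The summed intensity ran from 33410 to 37538 in KNP and from 25962 to 33729 in YS, CD5L and C1QC having the most intense signals, while MARCO was below the array median throughout. Of 8 B and plasma cell genes only JCHAIN was tested (0.85, limma adjusted p = 0.214), and CD79B was below the array median throughout. The sum ran from 1869 to 3323 and from 960 to 2728. Endothelial genes summed to 5371 to 7276 in KNP and 4611 to 7067 in YS. Differences of their 11 tested probe sets ran from −0.40 to 1.24 (median 0.21), with 8 above and 3 below 0. Of the 11, 1 was called higher, that of RAMP2 (log2 1.24, limma adjusted p = 0.0190). That call was lost without YS replicate 1, 2 or 4 (limma adjusted p 0.0757, 0.0536 and 0.0762). Blood cell genes summed to 2417 to 4760 and 2715 to 5375, with 0 of 6 called and 2 at an unadjusted p under 0.05. The part of these cells in the class I values was not tested.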

How the data were processed

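The authors deposited 1 table of intensities, with 1 column per array and 1 row per probe set. GCOS 1.3 is named in the submitters' processing notes. For the signal algorithm, background step and scaling the sources used here give no statement. The values are linear. Genes were named from the array annotation. The 124 controls were left out of the fit, and log2(intensity + 16) was fitted with limma 3.58.1 in R 4.3.3 (lmFit, eBayes with an intensity trend), breed as the only term, two-sided, with Benjamini-Hochberg adjustment over 14399 probe sets. The fit was run on simulated data with independent noise at each probe set and no shift between arrays. That simulation therefore does not cover the difference of bright probe sets between the breeds. Alternatives were a pseudocount of 1 or 64, quantile and cyclic loess normalization, median centring, no filter or 60% left out, no trend, array weights, a replicate block, and each animal left out. Replicate numbers do not pair the animals. The members and lists were chosen with earlier results of these data known. Named are every member probe set, pathway genes past the threshold (up to 6) and 2 or 3 more with the smallest p, some further pathway genes chosen after their values were seen, the 3 genes most like each B2M probe set, and the 2 most intense genes of marker lists. No coordinates or sequences are given. No genome sequence was used here, only the entries of the pig gene table and their order.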

Additional observations from a re-analysis of the deposited data

Results flagged for a closer look

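One value stood apart from its group. At the B2M probe set Ssc.19916.2.S1_a_at KNP replicate 1 was at 586, while the other 3 KNP livers lay between 373 and 394. The gap took up 0.901 of the range of the 4 values. Of 32 groups of 4 examined this was the 1 that stood out, and chance alone gives about 1 group in 20.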

How the results depend on the processing

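The 16 member differences were recomputed under up to 18 alternatives, 256 values in all, of which 248 moved by less than the spread between livers. The other 8 were those of Ssc.12348.1.S1_at (−0.0047 and −0.12), Ssc.12809.5.A1_at (1.88 and 1.78), Ssc.5896.1.S1_at (−0.14 and −0.18) and Ssc.8925.1.S1_at (−0.057 and −0.19), with quantile and cyclic loess normalization. The sign never turned for 13 of the 16. The filter, trend and replicate block settings act only on the SE and p and leave each difference as it was. Their share of the 248 values, and the sign under them, was therefore fixed in advance. For the low TAP1 probe sets only quantile normalization could change the difference. The call of Ssc.12809.5.A1_at was kept in all 18 alternatives except the replicate block, where 0 members were called. B2M was selected on the breed differences of these same arrays, so the call and its repeats describe the fits and test nothing. With the block 6 probe sets in all were called higher and 2 lower, and 0 pathway genes. The numbers do not pair the animals: the correlations of same-numbered livers ran from −0.0203 to 0.0507. Over all probe sets 10 were called higher and 4 lower with quantile and with cyclic loess normalization, 24 and 11 without the filter, 8 and 5 without the intensity trend, and 38 lower with median centring. With 1 animal left out 5 to 48 were called higher and 3 to 81 lower, lowest without YS replicate 3 and highest without KNP replicate 2 (higher) or KNP replicate 4 (lower). The 1 call among the other pathway genes became 0 with quantile or cyclic loess normalization, median centring, no filter or no trend, 2 with 60% left out, 3 with array weights, and 0 to 2 with 1 animal left out. The cause of these shifts was not tested. The values carry no detection call, and the low TAP1 probe sets lay below the array median on every array, so no order is read into them.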
